A study of Homo sapiens with 8 samples.

Results

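Solute carriers are the membrane proteins that move sugars, amino acids, ions, metals, lipids and metabolites across the plasma membrane and the membranes of organelles. The members described here are the array probes whose gene symbol has the form SLC, a family number, the letter A and a member number, and whose detection p-value was below 0.01 on at least 4 of the 8 arrays. This rule found 87 probes for 85 symbols among 340 family probes for 299 symbols, on an array of 20589 probes. It reads the symbol as printed, so it also takes in SLC9A3R1, SLC4A1AP and SLC2A4RG, which are named after carriers but are not carriers, and it leaves out families whose members carry another letter, such as SLC35B. The detection p-values alone chose the members, and the difference between the cell layers was not used. Still, detection on the 4 arrays of a single layer is enough, so a probe can be a member through the layer where it is high.

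MCF10A-5E is a clonal isolate of MCF10A, an immortalised, non-tumorigenic human breast epithelial line. Its cells were grown on Matrigel, a reconstituted basement membrane, in medium with horse serum, hydrocortisone, cholera toxin, insulin and EGF, where they form spheres called acini. At day 6 about 50 cells per sample were cut by laser microdissection from 8 µm sections, and 4 samples held outer cells that touch the matrix and 4 held inner cells that do not. Poly(A) PCR amplified the RNA before it went onto Illumina HumanRef-8 v2.0 arrays. Both groups share the clone, the medium and the day. Nothing in the labels says that samples came from separate cultures, so a p-value here reflects the spread among these 8 samples, part or all of which may be technical. In such samples, fewer cells that express a gene and less RNA per cell cannot be told apart.

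As background, carriers are grouped into families by sequence, and a family usually shares a kind of substrate. At the plasma membrane they set what a cell can take up: SLC7 members with their heavy chain SLC3A2 exchange amino acids, SLC16 members carry lactate and other monocarboxylates, and SLC20 members bring in phosphate with sodium. Inside the cell, SLC25 carriers exchange nucleotides, phosphate and metabolites across the inner mitochondrial membrane, SLC35 carriers bring nucleotide sugars into the Golgi, and zinc is moved into the cytosol by SLC39 members and out of it by SLC30 members. In mammary epithelium these proteins supply growth, energy metabolism and, in lactation, milk components.

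Between 6429 and 7000 probes per array were detected, with array means of 344 to 533 in intensity. Of the 87 members, 70 to 81 were detected on an array and 53 on all 8. Of 10 breast epithelial markers 8 were measured, among them KRT5, KRT14, TP63 and EPCAM on all 8 arrays, while the probe of CDH1 was detected on 0 arrays and a bright probe of KRT18, at 903 to 1346, on 2. All 6 endothelial markers were detected on 0 arrays. Among 8 leukocyte probes, PTPRC was detected on 1 outer array and CD14 on 3 inner arrays. Of 6 fibroblast markers 2 passed the filter: 1 of 3 probes of DCN was bright on all 8 arrays, at 1202 to 4465, and COL1A2 was detected on 4 outer and 2 inner arrays. COL3A1 was detected on 2 arrays, COL1A1 on 1, and PDGFRB and LUM on 0. The summed intensity of the fibroblast markers was 1526 to 4536 on outer and 1528 to 4768 on inner arrays, and its part in the results was not tested.

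No solute carrier passed the threshold of the comparison between layers. The fit gave 0 of 87 probes with an adjusted p below 0.05 (limma, smallest adjusted p = 0.233), against 0.0149% of the 6698 probes tested. At an unadjusted p below 0.05 there were 4 members, 2 with a higher mean in outer cells (SLC39A10 and SLC20A1) and 2 with a lower one (SLC25A25 and SLC27A3). SLC25A25 was detected on 4 inner and 2 outer arrays, so the layer where it is high was enough for it to pass the filter. The 4 members are 4.6% of 87, against 8.06% of all probes tested, of which 3.84% were higher and 4.23% lower. Leaving out 1 array moved this count to between 1, without outer replicate 2, and 7, without inner replicate 2 or outer replicate 1. The 4 values of a layer lay wholly to one side of the other layer's for 3 members, SLC39A10, SLC25A23 and SLC16A1, which is 3.45% against 5.26%. Of these, SLC25A23 was detected on 4 inner arrays and 1 outer array, so it passed the filter through the layer where it is high. For 1 member the outer values lay above (2.57% of all probes), and for 2 the inner values (2.69%). A log2 difference of at least 1 in size was found for 2 members, SLC37A2 and SLC30A1, which is 2.3% against 4.55%. Each of these shares lies below that of all probes, but they rest on at most 4 members and some lie close to it. They are not read as a trait of the family. With a background estimated from regular probes, described with the processing, 3 members had an unadjusted p below 0.05, against 8.03% of all probes, and with the authors' scaled values 4, against 8.02%.

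The family as a whole had no lean to one layer. The mean was higher in outer cells for 40 members and lower for 47, so that 46% were higher against 50.6% of all probes tested. The median log2 difference was -0.01, against 0.00 over all probes. The median size of a difference was 0.17 on the log2 scale, against 0.19 over all probes, while the median SD between arrays of a layer was 0.38 for both sets. For 86 of the 87 members the range within a layer was larger than the difference between layers, as for 6551 of the 6698 probes tested. Among the members SLC39A10 was the exception. The 95% interval of the difference lay within 1 on the log2 scale on either side of 0 for 48 members. These are 55.2% of the members, against 57.3% of all probes, and a change of that size is outside their interval. With the background from regular probes this held for 17, which is 19.5% against 24.9% of all probes. For most members these arrays thus do not bound the difference that closely. That background gave larger differences for dim members, with a median size of 0.47 on the log2 scale (0.39 over all probes). With it 42 members kept their sign at over 1.5 times the size, as did 3207 of the 6698 probes tested. A turned sign was found for 5 members, SLC15A4, SLC36A4, SLC12A8, SLC30A7 and SLC10A3, and for 499 of all probes. These 5 also turned with the authors' scaled values, as did 441 of those 499. For members named in the classes whose difference moved in this way, both values are given.

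**Figure D1:**
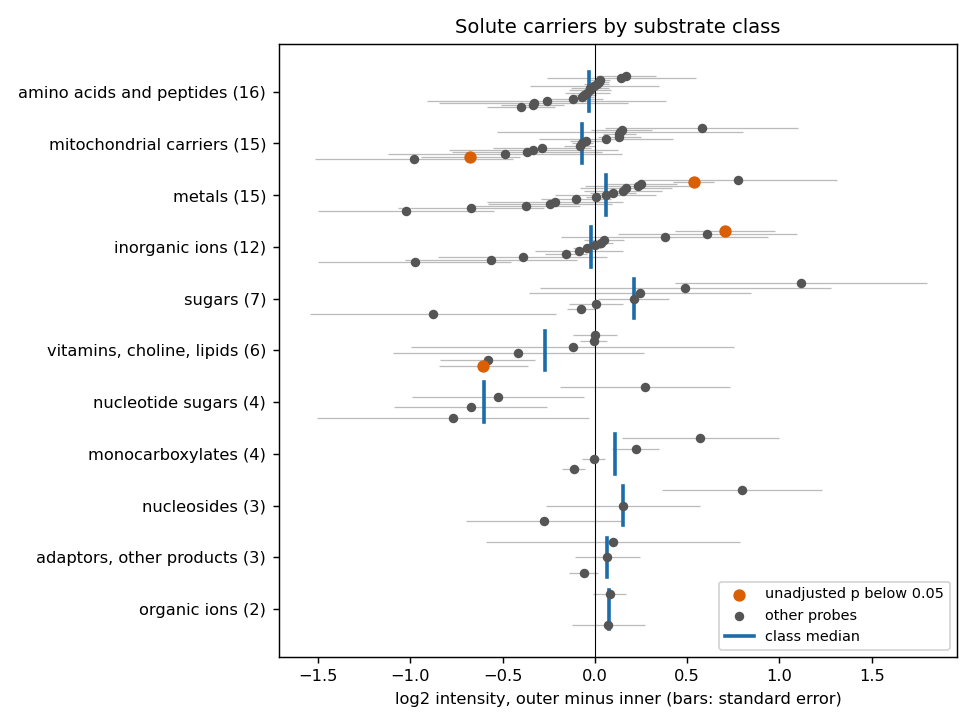
Log2 difference, outer minus inner, of each of the 87 solute carrier probes (points, with standard errors as bars), by substrate class with the number of probes in brackets. Most classes straddle 0; the 4 orange points have an unadjusted p below 0.05, and the blue line is the class median, lowest for nucleotide sugars at -0.60.

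**Figure D2:**
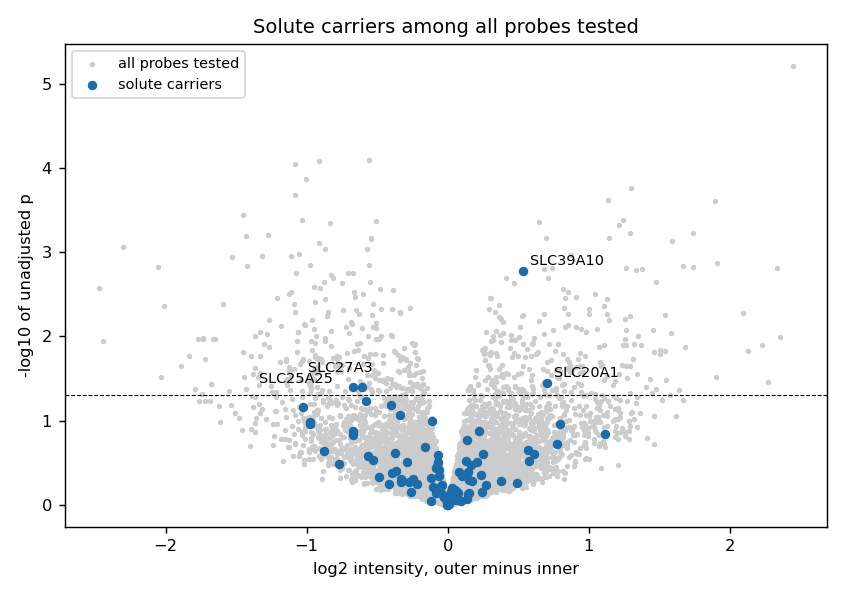
Log2 difference, outer minus inner, against -log10 of the unadjusted p for all probes tested (grey) and the 87 solute carriers (blue). SLC39A10 stands highest among the members, and the dashed line is the unadjusted limma threshold of 0.05.

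Zinc carriers gave the member with the smallest p. SLC39A10 (probe ILMN_13415) is a zinc importer of the plasma membrane. Its normalized log2 intensity was 8.32, 8.29, 8.51 and 8.02 on the outer arrays and 7.71, 7.71, 7.83 and 7.77 on the inner arrays. Every outer value lay above every inner value, and the range within each layer was smaller than the gap between their means. The layers differed by 0.53 (SE 0.11, 95% interval 0.28 to 0.79), which is 1.45-fold, with an unadjusted p of 0.00167 and an adjusted p of 0.233 (limma). It kept an unadjusted p below 0.05 in all 19 other settings that tested it, with an adjusted p of 0.263 to 0.614. The deposited intensities ran from 356 to 669 in outer cells and from 152 to 288 in inner cells, and with the background from regular probes the log2 difference was 1.2.

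SLC30A1, the zinc exporter of the plasma membrane, lay in the other direction. It lay at a log2 intensity of 7.43, 7.84, 7.80 and 8.71 on the outer arrays and 10.14, 8.10, 8.54 and 9.08 on the inner arrays. Outer replicate 1, at an intensity of 29.7, was not detected, and outer replicate 4 lay among the inner values, so that the layers overlapped. The log2 difference was -1.02 (SE 0.48, limma, unadjusted p = 0.0689, adjusted p = 0.659). It was -0.63 without inner replicate 1 and -2.13 with the background from regular probes.

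The other zinc carriers shared no direction. SLC30A5, which loads zinc into the secretory pathway, has 2 probes that disagree: the probe for transcript variant 1 (ILMN_24834), detected on 1 outer and 3 inner arrays, differed by -0.67, and the probe for transcript variant 2 (ILMN_8356), detected on 4 outer and 2 inner arrays, by 0.10. They differed by -1.96 and 1.2 with the background from regular probes. Neither had an unadjusted p below 0.05. SLC30A7, another carrier of the secretory pathway, differed by 0.24, but by -0.12 with the background from regular probes and by -0.04 with the authors' scaled values, so that its direction was not settled. SLC30A9 differed by -0.22. Among the importers SLC39A11 differed by 0.78, SLC39A8 by 0.15, SLC39A1 by -0.10 and SLC39A14, which also takes up iron, by -0.37. SLC39A7, a carrier of the endoplasmic reticulum, was at 7.46 to 7.51 on all 8 arrays, close to background. The copper carriers SLC31A1 and SLC31A2 differed by 0.17 and 0.25 (1.45 and 1.04 with the background from regular probes), and SLC41A1 and SLC41A3, of a magnesium carrier family, by -0.24 and 0.06. In all, 9 of the 15 metal probes had a higher mean in outer cells, with a class median of 0.06.

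Carriers of inorganic ions included the second member with a higher mean in outer cells at an unadjusted p below 0.05. SLC20A1 (ILMN_7081), a sodium-dependent phosphate importer, was at a log2 intensity of 11.03, 11.92, 11.64 and 11.68 on the outer arrays and at 10.27, 11.10, 11.28 and 10.80 on the inner arrays. Outer replicate 1 lay among the inner values, and the other outer values lay above all of them. The log2 difference was 0.70 (SE 0.27, limma, unadjusted p = 0.0353, adjusted p = 0.572). The unadjusted p was below 0.05 in 10 of 19 other settings, and leaving out 1 array gave 0.51 to 0.88. SLC20A2, the related phosphate importer, differed by 0.61 (SE 0.49), with inner values from 8.37 to 10.76.

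The exchangers of this class did not separate by layer. SLC9A9, a sodium-proton exchanger of endosomes, had the lowest difference of the class at -0.98, with outer values of 7.53 to 7.98 and inner values of 8.67, 7.43, 10.17 and 8.76. Inner replicate 2 was below every outer array and inner replicate 3 far above. SLC9A8, a Golgi exchanger of the same family, differed by -0.16, and by -1.64 with the background from regular probes. It was detected on 4 inner arrays and 1 outer array, so it passed the filter through the layer where it is high. The anion exchangers SLC4A2 and SLC26A6 differed by -0.39 and -0.56, and the sulfate carrier SLC26A2 by 0.03 (0.20 with the background from regular probes). SLC12A8 differed by -0.09 but by 0.28 with that background, SLC12A9 by -0.04 and -0.40, and SLC8A3, a sodium-calcium exchanger, by -0.00 and -0.05. Over the 12 probes 5 were higher and 7 lower in outer cells, and the class median turned from -0.02 to 0.07 with that background.

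Mitochondrial carriers, with 15 members of 39 family probes, had 6 probes with a higher and 9 with a lower outer mean, with a median log2 difference of -0.07. SLC25A25 (ILMN_15060), a calcium-regulated carrier of ATP-magnesium and phosphate, was at 7.78, 7.76, 7.44 and 7.45 on the outer arrays and at 8.68, 7.99, 8.80 and 7.67 on the inner arrays. It was detected on 2 outer and 4 inner arrays, and only inner replicate 4 lay among the outer values. The log2 difference was -0.68 (SE 0.27, limma, unadjusted p = 0.0396, adjusted p = 0.584), and the unadjusted p was below 0.05 in 12 of 18 other settings. With the background from regular probes the difference was -2.42. The inner arrays, where the probe is high, were enough for it to pass the filter, so these values only describe it.

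SLC25A23 (ILMN_5925), a carrier of the same calcium-regulated subgroup, was detected on 1 outer and 4 inner arrays. Its deposited intensity was 62.9, 36.1, 64.3 and 47.1 on the outer arrays and 94.3, 93.2, 112 and 69.7 on the inner arrays, so that all inner values lay above all outer ones. The log2 difference was -0.07 (SE 0.06, limma, unadjusted p = 0.258, adjusted p = 0.825). With the background from regular probes it was -1.18, with an unadjusted p of 0.00606 (limma). The probe passed the filter through the inner arrays, where it is high, so these values only describe it. SLC25A24, of the same subgroup, has 2 probes, detected on 3 arrays and on 0, and is not a member here.

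Some of the steadiest members were also mitochondrial. SLC25A5 and SLC25A6, which exchange ADP for ATP and are close in sequence to each other and to SLC25A4, so that their probes may share signal, were at 12.94 to 13.12 and 11.76 to 11.95 on the outer arrays and at 12.95 to 13.25 and 11.73 to 12.01 on the inner arrays. Their log2 differences were -0.08 (95% interval -0.28 to 0.12) and -0.05 (95% interval -0.25 to 0.16). SLC25A4 was far more variable, with inner values from 8.12 to 10.89 and a difference of 0.14. SLC25A12 and SLC25A13, the aspartate-glutamate carriers, differed by -0.98 and 0.13 (the latter by 0.36 with the background from regular probes). For SLC25A12 the outer arrays lay at 7.85 to 8.73 and the inner arrays at 8.21, 10.74, 9.71 and 8.92, and the unadjusted p was 0.110 (limma). SLC25A15, the ornithine carrier of the urea cycle, had the highest difference of the class, 0.58 (SE 0.52). SLC25A28 and SLC25A37, the mitoferrins that bring iron into mitochondria, differed by -0.37 and -0.33, and SLC25A11, the oxoglutarate carrier, by 0.06 (0.09 with that background).

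**Figure D3:**
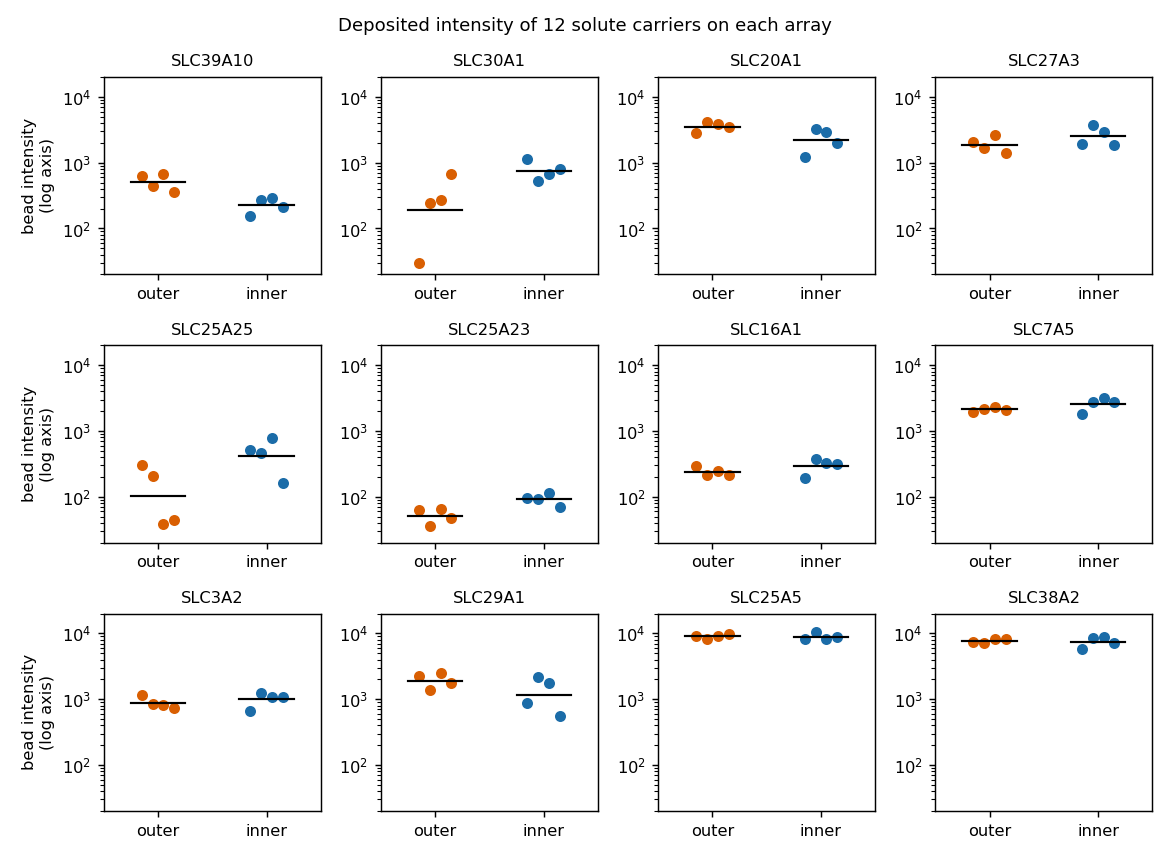
Deposited bead intensity (log axis, not normalized) of 12 solute carriers on the 4 outer (orange) and 4 inner (blue) arrays, with the geometric mean of each layer as a black line. SLC39A10 is the panel in which the outer arrays lie highest above the inner ones without overlap, and SLC25A5 and SLC38A2 are nearly level.

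Amino acid and peptide carriers were the largest class, with 16 members, 5 higher and 11 lower in outer cells and a median of -0.03. None had an unadjusted p below 0.05. SLC7A5 and SLC3A2 are the light and heavy chain of a leucine and large neutral amino acid exchanger. SLC7A5 was at 10.32, 10.92, 10.76 and 10.80 on the outer arrays and at 10.93, 10.80, 11.39 and 11.29 on the inner arrays. SLC3A2 was at 9.30, 9.16, 8.78 and 8.82 on the outer arrays and at 9.07, 9.29, 9.38 and 9.66 on the inner arrays. In both chains the layers overlapped. The log2 difference was -0.40 (SE 0.18) for SLC7A5 (limma, unadjusted p = 0.0647, adjusted p = 0.657) and -0.34 (SE 0.17) for SLC3A2 (unadjusted p = 0.0859, adjusted p = 0.690). Their 95% intervals were -0.84 to 0.03 and -0.74 to 0.06. Leaving out 1 array gave -0.50 to -0.28 for SLC7A5 and -0.43 to -0.23 for SLC3A2.

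Other amino acid carriers varied more within a layer than between layers. SLC38A2, a sodium-coupled carrier of small neutral amino acids, was at 12.69 to 12.92 in outer and 12.72 to 13.06 in inner cells, a difference of -0.03 (95% interval -0.27 to 0.22). SLC38A1, a glutamine carrier of the same family, ranged from 9.73 to 12.47 over the inner arrays alone, and differed by -0.26 (SE 0.65). SLC7A1, a carrier of cationic amino acids, differed by 0.14, SLC7A6, a partner of SLC3A2, by -0.33, and SLC7A8, another partner, by -0.07 (-0.89 with the background from regular probes). SLC36A1, a proton-coupled carrier of the lysosome, had the highest difference of the class at 0.17, and 0.62 with that background. The glutamate carriers SLC1A3 and SLC1A6 differed by -0.12 and 0.02, the creatine carrier SLC6A8 by -0.03 and the glycine carrier SLC6A9 by -0.06. SLC1A6 was at 0.38, SLC6A8 at -0.12 and SLC6A9 at -0.83 with that background. SLC15A4, SLC36A3, SLC36A4 and SLC38A6, all dim on most arrays, differed by -0.04 to 0.03. SLC15A4 reached an intensity of 963 on inner replicate 2, and its difference was 0.33 without that array. With the background from regular probes the same carriers differed by 0.93, 0.60, -0.04 and -0.65, so that SLC15A4 and SLC36A4 turned sign. The class median was -0.13 with it. SLC7A11, the cystine importer, was detected on 2 arrays, at 758 on inner replicate 2 and 81.0 on outer replicate 3, and SLC1A5, a glutamine carrier, on 1 array, so that neither is a member.

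Lipid, choline and vitamin carriers were lower in outer cells for 5 of 6 probes, with a median of -0.27 that moved between -0.55 and -0.01 when 1 array was left out. SLC27A3 (ILMN_820), of the fatty acid transport protein family, was at 10.46, 10.47, 10.98 and 9.99 on the outer arrays and at 11.01, 11.38, 11.26 and 10.67 on the inner arrays. Outer replicate 3 lay above inner replicate 4, and otherwise the inner values were higher. The log2 difference was -0.61 (SE 0.24, limma, unadjusted p = 0.0394, adjusted p = 0.584), and the unadjusted p was below 0.05 in 7 of 19 other settings. SLC44A1, a choline carrier, has 2 probes. The brighter one (ILMN_23525) was at 10.83, 10.06, 10.77 and 10.11 on the outer arrays and at 10.88, 11.27, 11.37 and 10.58 on the inner arrays, with a difference of -0.58 (limma, unadjusted p = 0.0589). Its second probe (ILMN_22168), detected on 3 outer and 3 inner arrays, ranged from 7.43 to 10.25 over the inner arrays and differed by -0.41. SLC27A1 and SLC27A5, of the family of SLC27A3, differed by -0.01 and -0.12, and SLC10A3 by 0.00. With the background from regular probes SLC27A5 was at -0.82 and SLC10A3 at -0.24, and with the authors' scaled values SLC27A1 was at 0.05.

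Among carriers of monocarboxylates and sugars, SLC16A1, a lactate and pyruvate carrier, was at 7.75 to 7.78 on the outer arrays and at 7.81 to 7.97 on the inner arrays. The layers did not overlap after normalization, but the log2 difference was only -0.12 (SE 0.06, limma, unadjusted p = 0.102, adjusted p = 0.717). With the background from regular probes it was -0.36. The deposited intensities overlapped, with 215 to 296 on the outer and 194 to 378 on the inner arrays. SLC16A3, the lactate exporter of glycolytic cells, was at 7.71 to 7.79 in outer and 7.70 to 7.82 in inner cells, a difference of -0.01, and -0.02 with the background from regular probes. SLC16A5 and SLC16A13 differed by 0.22 and 0.57 (1.18 and 1.5 with that background), the latter with 1 outer array at 9.37 and the others at 7.42 to 7.99.

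The sugar families had 5 of 7 probes higher in outer cells, with a median of 0.21 that was -0.04 at the lowest when 1 array was left out. SLC37A2, a sugar phosphate carrier, had the highest difference of all members. It was at 9.63, 11.48, 10.65 and 9.35 on the outer arrays and at 9.84, 8.79, 7.77 and 10.26 on the inner arrays. The layers overlapped, and the log2 difference of 1.11 had a standard error of 0.68 (limma, unadjusted p = 0.146, adjusted p = 0.753). SLC37A4, the glucose 6-phosphate carrier of the endoplasmic reticulum, differed by 0.25. SLC2A5, the fructose carrier, lay at the other end with -0.88, with intensities of 29.8, 282, 368 and 28.9 on the outer and 26.9, 40.5, 1810 and 769 on the inner arrays. Of the glucose carriers of the same family, SLC2A6 differed by 0.21 and SLC2A8 by 0.01 (1.2 and 0.56 with the background from regular probes), and SLC2A3 was detected on 0 arrays. By family number SLC5A6, a carrier of biotin and pantothenate, and SLC5A8, a carrier of monocarboxylates, also fall in this class, with differences of 0.49 and -0.08, the latter -0.47 with that background. The class median was 0.52 with it.

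Nucleotide sugar carriers of the Golgi were lower in outer cells for 3 of 4 probes, with a median of -0.60, the lowest of any class, which ranged from -0.92 to -0.30 when 1 array was left out. SLC35A1, the CMP-sialic acid carrier, differed by -0.77, SLC35A4 by -0.67 and SLC35A5 by -0.53, while SLC35A2, the UDP-galactose carrier, differed by 0.27. SLC35A1 was at -1.38 with the background from regular probes. Standard errors were 0.42 to 0.74, and the smallest unadjusted p was 0.149 (limma). SLC29A1, the main equilibrative nucleoside carrier, was at 10.61, 10.08, 10.86 and 10.45 on the outer arrays and at 9.63, 10.35, 10.35 and 8.48 on the inner arrays. Its difference was 0.80 (SE 0.44, limma, unadjusted p = 0.109, adjusted p = 0.719). The related SLC29A2 and SLC29A3 differed by 0.15 and -0.28 (1.02 and -0.55 with that background). SLC22A5, the carnitine carrier, and SLC17A5, the sialic acid exporter of lysosomes, differed by 0.08 and 0.07 (0.52 and 0.95 with that background).

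The 3 members that are not carriers did not separate by layer. SLC9A3R1, now named NHERF1, is a scaffold protein that anchors carriers under the apical membrane. It was at 10.64 to 11.18 in outer and 10.38 to 11.02 in inner cells, a difference of 0.07 (95% interval -0.35 to 0.49). SLC4A1AP, an adaptor protein, differed by 0.10 (95% interval -1.53 to 1.72), and SLC2A4RG, a regulator of transcription, by -0.06 (95% interval -0.24 to 0.12). Their differences were 0.59 and -0.63 with the background from regular probes, and 0.52 and -0.58 with the authors' scaled values.

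Within a layer, many members moved more than between layers. In the authors' scaled intensities, the brightest of the 4 arrays of a layer exceeded the dimmest at least 10-fold in 20 members, 23% of them, against 22.5% of all probes tested. It did so in 13 members among outer arrays, in 11 among inner arrays and in 4 in both. SLC9A9 had the widest spread, 54.4-fold over the inner arrays, with SLC2A5 at 53.3-fold. Over the outer arrays SLC16A13 spread 44.8-fold and SLC27A5 36.3-fold. At the other end 19 members, 21.8% against 25.3% of all probes, stayed within 2-fold in both layers, among them SLC25A6, SLC38A2, SLC25A5, SLC7A5, SLC16A1 and SLC3A2. Among the classes with over 10 members, a 10-fold spread was found for 6 of 15 metal probes, 2 of 12 inorganic ion probes, 1 of 16 amino acid probes and 0 of 15 mitochondrial probes. These differences between classes were not tested.

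The beads of a single array were far more even. The median bead standard error of the members was 5.31% of the intensity, with a median of 43 beads, while the median coefficient of variation between arrays was 43.1% within the outer and 51.5% within the inner layer. These coefficients were taken on the deposited intensities, so they include the brightness of each array, whose means ran from 344 to 533. The bead error was thus small beside the spread between arrays, in which array and sample were not told apart.

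**Figure D4:**
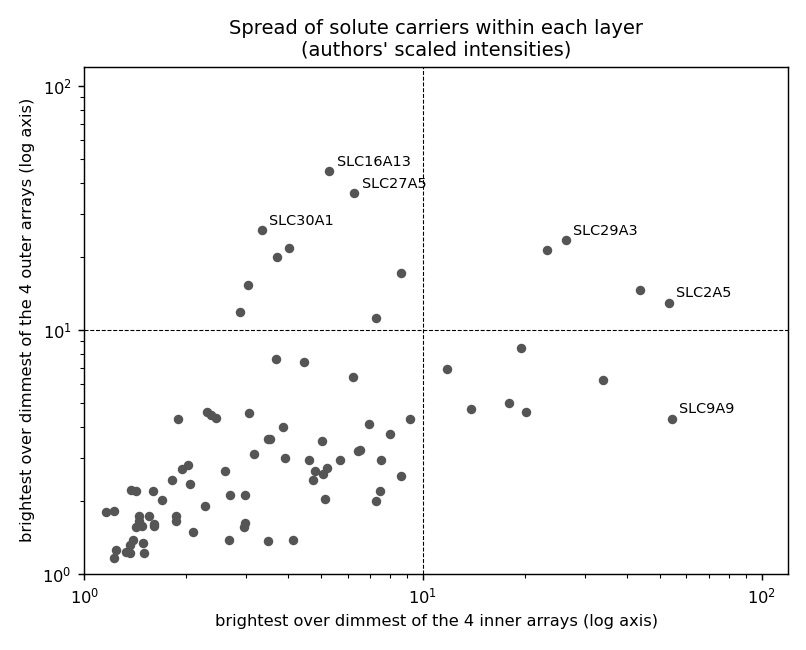
Brightest over dimmest of the 4 inner arrays (horizontal) and of the 4 outer arrays (vertical) for each of the 87 members, in the authors' scaled intensities, on log axes with dashed lines at 10-fold. In 20 members the ratio reaches 10 in at least 1 layer, and in 4 of them, upper right, in both.

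The detection filter sets which carriers can be seen. Of the 340 family probes 200 were detected on 0 arrays, 15 on 3 arrays and 10 on 4. The 10 just inside were SLC36A3, SLC36A4, SLC6A9, SLC12A8, SLC8A3, SLC16A13, SLC2A5, SLC2A6, SLC27A1 and 1 probe of SLC30A5. Just outside, SLC24A1 was detected on 3 inner arrays, at 85.8 to 201, and was at 36.8 to 52.7 on the remaining 5 arrays. SLC11A2, an iron importer, was detected on 3 arrays, with its highest intensity of 274 on inner replicate 2. SLC39A6, a zinc importer, was detected on 2 inner arrays, at 391 and 702, and stayed between 30.6 and 46 on the remaining 6. SLC12A2, SLC34A2 and SLC40A1 were detected on 0 arrays.

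A bright probe can also miss the filter. The detection p of 1537 rows lies off the regular steps of 1/708. On these rows 100% of the p-values, or their distance from 1, equal the square of a whole number of steps divided by 2, within 0.02 steps. On 99.7% of them the deposited bead number is not whole on at least 1 array, against 0.262% of the other rows. Over the whole array 275 of these 1537 rows had a mean intensity above 300, and 197 of the 275 missed the filter. Of the 4275 other rows that bright, 37 missed it. Among the solute carriers 25 rows are of this kind, and 4 of them had a mean intensity above 300 and were detected on 0 arrays.

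SLC25A3, the mitochondrial phosphate carrier, is the brightest of these. Its intensity was 10125, 11072, 10818 and 10126 on the outer arrays and 8652, 11643, 9819 and 10226 on the inner arrays, while its detection p was 0.273 to 0.441. With no filter on detection its log2 difference was -0.02 (limma, unadjusted p = 0.724). SLC43A3, a carrier of purine bases, was at 2566, 1858, 2726 and 2103 on the outer arrays and at 1500, 1795, 1907 and 1445 on the inner arrays. Only outer replicate 2 lay below an inner value. With no filter its log2 difference was 0.53 (SE 0.16, limma, unadjusted p = 0.0132, adjusted p = 0.862). SLC7A2, a cationic amino acid carrier, and SLC23A2, a vitamin C carrier, had mean intensities of 778 and 387 and differed by -0.21 and 0.22, with unadjusted p of 0.690 and 0.649 (limma).

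Genes that drive or anchor carriers showed the same picture, with 0 past the adjusted threshold in every list. Of the sodium pump, whose gradient powers many carriers, 2 of 7 genes were measured, and ATP1B1, a beta chain, differed by 0.96 (limma, unadjusted p = 0.114), and by 2.23 with the background from regular probes. The V-ATPase, the proton pump of lysosomes and endosomes, had 16 of 22 genes measured, 8 higher and 8 lower in outer cells, with a median of 0.01. Its ATP6V1A and ATP6V1H lay at -1.02 and 0.95, with unadjusted p of 0.0185 and 0.0228 (limma). ABC transporters, pumps driven by ATP, had 17 of 46 genes measured, 11 higher and 6 lower, with a median of 0.02 (0.12 with that background) and none with an unadjusted p below 0.05.

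Among the anchors and chaperones, BSG, which carries SLC16A1 and SLC16A3 to the plasma membrane, differed by -0.06. EZR, a membrane linker bound by NHERF1, differed by 0.15. MTCH2, a relative of the SLC25 carriers in the outer mitochondrial membrane, differed by -0.53 (limma, unadjusted p = 0.00408, adjusted p = 0.328), with all inner values above all outer values. With the background from regular probes its difference was -1.23 (limma, unadjusted p = 0.00864). VDAC1, a channel of that membrane, differed by 0.24, with all outer values above all inner values (limma, unadjusted p = 0.0144, adjusted p = 0.454), and VDAC2 and VDAC3 by 0.05 and -0.25. Genes of lysosomal amino acid sensing were lower in outer cells for 5 of 6 measured, with MTOR, at 0.36, the exception. SLCO4A1, of the organic anion family, differed by 0.45, and the aquaporins AQP3 and AQP9 by -0.18 and 0.32, all with an unadjusted p above 0.05. AQP9 turned to -0.61 with the background from regular probes and to -0.44 with the authors' scaled values, and AQP3 was at -0.48 with the former.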

How the data were processed

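Arrays of 4 outer and 4 inner samples, grouped by the sample titles, were compared. Each array's deposited table gives, per the file headers, an intensity averaged over the beads of a probe, a detection p-value, a bead standard error and a bead number. The values show that this intensity had been neither corrected for background nor normalized by the authors. A further deposited column, called the authors' scaled values here, is the ratio of intensity to array mean. The scanning software is not given in the sources used here.

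The neqc function of limma 3.58.1 (R 4.3.3) was applied to all intensities: normexp background from the detection p, offset 16, quantile normalization, log2. It left out 1 probe that lacked beads on an array. A probe was tested if at least 4 arrays detected it at p below 0.01, which 6698 did. The model (lmFit, eBayes) held the group alone, and Benjamini-Hochberg adjustment ran over all probes tested. The background mean came to 96.5 to 126 using all probes, and to 31.1 to 38.4 using only the 19051 regular probes, those with a detection p that is a whole multiple of 1/708. The larger estimate draws dim values together, so that fold differences of dim probes are understated, and the second is given as an alternative. Differences are outer minus inner on the neqc log2 scale unless another scale is named, and levels of different probes were not compared. Same-numbered outer and inner samples had correlations of -0.04 to 0.03 between their deviations from the group means, so the numbers were not treated as pairs.

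Members, classes and lists were chosen with earlier results of these data known. Classes follow the SLC family number. Named are members with an unadjusted p below 0.05 or without overlap, the extremes of each class, genes with several probes, a set of well-studied carriers, probes near the detection threshold and genes of the partner lists. SLC43A3, SLC7A2, SLC23A2 and further members of each class were named after their values were seen. Older array symbols were updated through RefSeq names, which renamed 1 member. Some genes are not reported here by name. The same model was run on simulated arrays with known changes as a check. The number of arrays limits the precision.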

Additional observations from a re-analysis of the deposited data

Results flagged for a closer look

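In groups of 4 arrays, 1 sample stood apart from the other 3 by Dixon's criterion in 17 of 168 cases (84 members in 2 layers). For normally distributed values chance gives about 1 in 20. It stood high 14 times and low 3 times. The same count over all probes tested is not given, so this share cannot be read as particular to solute carriers. On inner arrays, the sample that stood high was inner replicate 2 for SLC15A4 at a log2 intensity of 8.85, inner replicate 1 for SLC6A9 at 7.66 and for SLC2A6 at 7.56, inner replicate 3 for SLC12A8 at 8.38 and for SLC9A8 at 7.93, and inner replicate 4 for SLC17A5 at 8.07. On outer arrays, it was outer replicate 2 for SLC1A6 at 7.54 and for SLC2A6 at 8.27, and outer replicate 3 for SLC38A6 at 7.83, for SLC9A8 at 7.52 and for the variant 1 probe of SLC30A5 at 7.77. Outer replicate 4 stood high for SLC7A8 at 7.54, for SLC17A5 at 8.11 and for SLC10A3 at 7.92. Low samples were outer replicate 3 for SLC7A1 at 9.15, outer replicate 2 for SLC7A6 at 7.86 and outer replicate 4 for SLC41A3 at 9.51. None of these members had an unadjusted p below 0.05 in the comparison of layers.

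Outside the members, 4 family probes were bright although no array detected them: SLC25A3 with a mean intensity of 10300, SLC43A3 with 1990, SLC7A2 with 778 and SLC23A2 with 387. The detection p of all 4 is no whole multiple of the regular step, and the cause was not tested.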

How the results depend on the processing

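In all 19 other settings the number of solute carriers past the adjusted threshold was 0, with a smallest adjusted p of 0.263 to 0.614, and the median difference of the members moved by less than the spread between arrays. The number at an unadjusted p below 0.05 was 1 to 7 when 1 array was left out, with 1 without outer replicate 2, 2 without inner replicate 3 or outer replicate 4, and 7 without inner replicate 2 or outer replicate 1. Over all probes, 1 passed the adjusted threshold. This count was 4 with the background from regular probes, 3 without background correction, 2 with the saddle-point background and offset 50, 3 with the authors' scaled values, 0 with detection on at least 1 array, 0 with detection on all 8 and 0 with no filter. Leaving out 1 array gave 0 to 3. Of the class medians, 17 of 209 values under other settings moved by more than the spread between arrays. Median scaling shifted the median over all probes to 0.03 and put the outer mean higher for 47 of 87 members. With the replicate number as a block, 0 members were called (smallest adjusted p 0.46), 5 had an unadjusted p below 0.05, and 1 probe of all was called. Dim probes limit what can be seen: their differences depend on the background estimate.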
